A study of Mus musculus with 9 samples.

Results

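Matrix metalloproteinases (MMPs) and their tissue inhibitors (TIMPs) were followed through the basal epidermis around a healing wound. The set held 10 genes of the 17097 measured: Mmp9, Mmp13, Mmp10, Mmp1b, Mmp3, Mmp2, Mmp14, Timp1, Timp2 and Timp3. A gene's array features (probe sets) were taken where the platform annotation gave that gene symbol alone, which yielded 19 probe sets for these 10 genes. Each gene is represented by its brightest probe set on average across the 9 arrays, and its other probe sets are given beside it.

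Basal cells were sorted from the tail skin of CD1 mice 4 days after a 3 mm wound, as α6 integrin+ CD34- cells, a gate that takes the basal layer and leaves out bulge cells of the hair follicle. Leading edge cells came from a 4 mm punch around the wound and were also gated as α5 integrin+. Proliferative hub cells came from a 6 mm punch and were gated as α5 integrin-, and control cells were taken at a distance from the wound, with no α5 integrin gate named in their labels. Each group had 3 arrays, each array was made from 300 cells, and tissue of 5 mice was pooled, so no value belongs to a single animal. Region and the α5 integrin gate cannot be told apart between these groups. Replicates are named biological in the labels but technical in the methods. Each p-value therefore sets a group difference against the spread of these samples only, and that spread may be technical.

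MMPs are zinc-dependent proteases that are made as inactive precursors and cut the proteins of the extracellular matrix once their propeptide is removed. TIMPs bind the active site of MMPs and block it. In skin wounds, keratinocytes that migrate over the wound bed are known to make collagenases, stromelysins and gelatinase B, which loosen contacts with collagen and basement membrane. A change of mRNA does not measure the protease activity.

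Values are log2 signals of the deposited arrays, so that a difference of 1 is a doubling, and each probe set has its own scale. Array medians lay between 6.47 and 6.53, and correlations between arrays were 0.988 to 0.995 within groups and 0.964 to 0.986 between groups. The array's 23 probe sets for nonspecific background lay between 3.66 and 8.61, with their median at 4.66. The sort gene Itga5, which encodes α5 integrin, was at 9.10, 9.06 and 9.17 on the leading edge arrays, at 6.46, 7.47 and 6.81 on the hub arrays and at 6.46, 6.23 and 6.50 on the control arrays. The 10 basal keratinocyte markers, among them Krt5 and Krt14, averaged 12.03 to 12.06 on leading edge arrays, 11.95 to 11.97 on hub arrays and 12.06 to 12.14 on control arrays. Single markers moved in both directions, with 4 of the 10 called higher and 2 lower for leading edge minus hub and likewise for leading edge minus control. Krt15, a keratin of basal cells, had a mean of 8.64 at the leading edge, against 9.86 in hub and 11.05 in control cells, and Itgb1, β1 integrin, had means of 12.54, 11.66 and 11.32 in that order.

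Most of these proteases, and Timp1, were highest at the leading edge, whereas Mmp2 and Timp3 were highest in control skin. Between leading edge and hub, 7 of the 10 genes were higher at the leading edge, 1 was lower and 2 were not called (limma, Benjamini-Hochberg adjusted p under 0.05 over all genes). Over all genes, 5.39% were called higher and 5.23% lower in that comparison. Between leading edge and control, 7 were higher, 2 were lower and 1 was not called, beside 11.9% and 10.8% of all genes. Between hub and control, none of the 10 was called higher by limma and 3 were called lower. Over all genes, 4.16% were called higher and 3.12% lower (711 and 533 genes, or 546 and 616 after median centring). At an unadjusted p under 0.05 (limma), 4 of the 10 were higher and 3 lower, beside 1929 and 1402 of 17097 genes. The median difference of the 10 genes was 2.11 for leading edge minus hub, 1.83 for leading edge minus control and -0.08 for hub minus control, beside -0.01, 0.02 and 0.03 over all genes. These comparisons share arrays, so they are not independent of each other, and in pooled cells a larger share of cells that express a gene and more RNA per cell cannot be told apart.

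**Figure D1:**
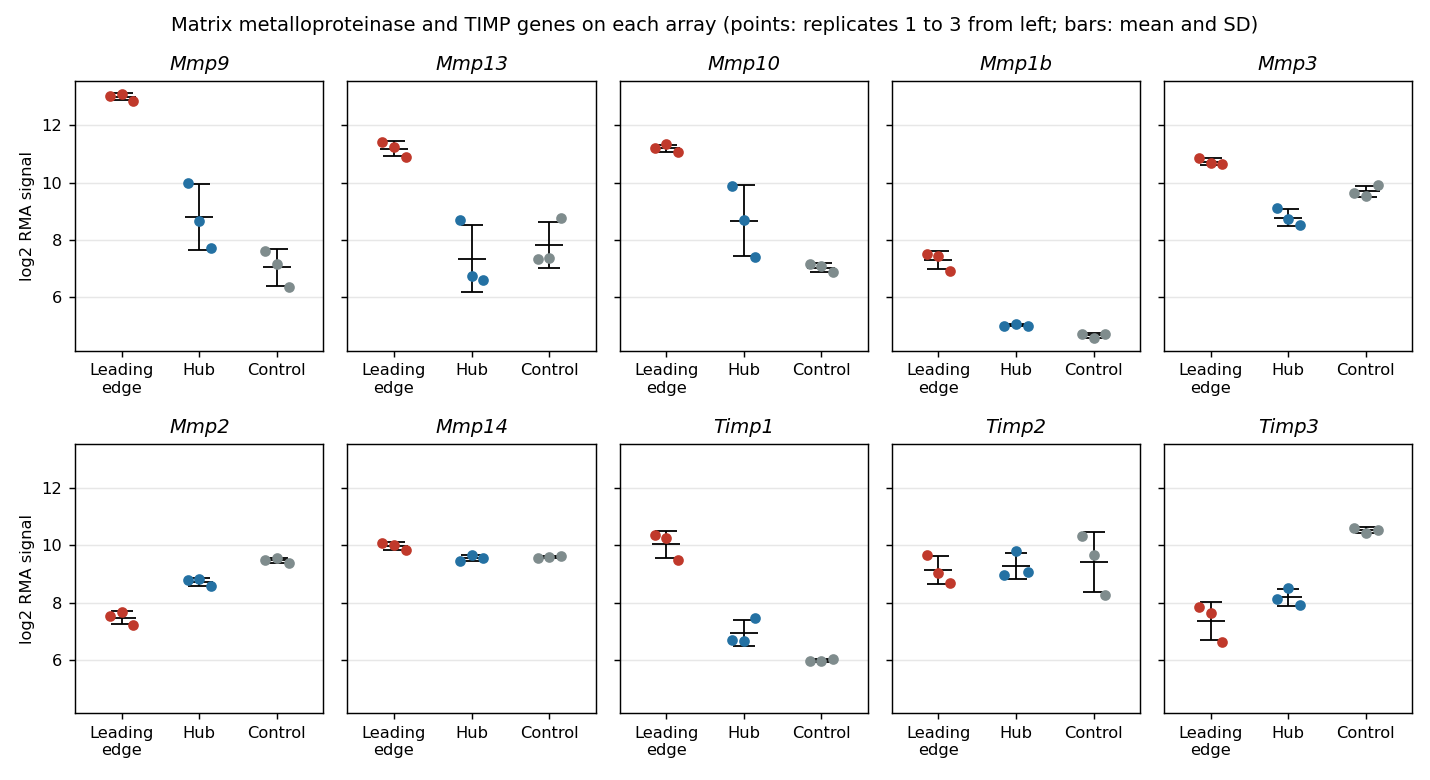
The log2 signal (y axis) of the 10 genes is shown on each array of leading edge, hub and control skin (x axis), with points for replicates and bars for mean and SD of 3 arrays. Mmp9, Mmp13, Mmp10, Mmp1b, Mmp3, Mmp14 and Timp1 lie highest at the leading edge without overlap with hub or control arrays, and Mmp2 and Timp3 lie lowest there.

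Mmp13, Mmp1b, Mmp3 and Mmp10 lie in the same gene cluster on chromosome 9, and the sequence before their start sites carries a shared feature. The 120 bases before the annotated start of Mmp13, Mmp10, Mmp3 and Mmp1b are shown because each holds 1 match to TGANTCA, the letters to which AP-1 (Fos and Jun dimers) is known to bind, which is set in capitals. The search string reads the same on both strands. Timp1 and Timp3 follow for contrast, as inhibitors that moved in opposite directions at the leading edge and have no match. The sequences are from RefSeq, mouse build GRCm38.p6.
Mmp13 (chr9:7272394-7272513, + strand): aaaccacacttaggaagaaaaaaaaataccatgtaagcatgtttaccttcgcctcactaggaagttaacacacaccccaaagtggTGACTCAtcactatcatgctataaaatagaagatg
Mmp10 (chr9:7502222-7502341, + strand): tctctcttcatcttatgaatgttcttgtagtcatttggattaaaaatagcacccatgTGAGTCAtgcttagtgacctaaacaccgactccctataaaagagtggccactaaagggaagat
Mmp3 (chr9:7445702-7445821, + strand): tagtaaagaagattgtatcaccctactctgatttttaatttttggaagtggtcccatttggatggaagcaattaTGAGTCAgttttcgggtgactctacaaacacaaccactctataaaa
Mmp1b (chr9:7388027-7388146, - strand): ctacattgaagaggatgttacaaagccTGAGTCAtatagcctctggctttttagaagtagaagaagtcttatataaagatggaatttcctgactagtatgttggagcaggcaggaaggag
Timp1 (chrX:20870046-20870165, + strand): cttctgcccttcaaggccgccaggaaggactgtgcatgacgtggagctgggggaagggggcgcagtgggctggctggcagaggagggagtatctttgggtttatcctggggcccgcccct
Timp3 (chr10:86300292-86300411, + strand): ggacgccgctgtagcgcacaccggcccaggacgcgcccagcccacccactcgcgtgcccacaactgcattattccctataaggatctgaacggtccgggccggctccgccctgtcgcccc

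The match began 35 bases before the start in Mmp13, 63 in Mmp10, 46 in Mmp3 and 93 in Mmp1b. Of the 10 genes, 8 were matched in the promoter table, and 4 of these 8 held the letters in the 250 bases before the start, beside 6.75% of 32851 promoters in the table. Mmp14, Timp1, Timp2 and Timp3 held no match in that window. Across the MMP and TIMP families, 8 of 22 genes held it. These included Mmp1a and Mmp20, and Mmp12 and Mmp7 at 1 of the starts listed for each. Mmp8 and Mmp27, which lie in the chromosome 9 cluster, held no match. The same 4 promoters also held the letters TATAAA on either strand within the 120 bases shown, beside 6.34% of all promoters, a search chosen after the sequences were seen. Their G and C content was 35.8% to 40.0%, against 69.2% in Timp3, 65.0% in Timp1 and a median of 54.2% over all promoters. A match of letters is a description and does not show that a factor binds there.

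Mmp9, gelatinase B, which cleaves denatured collagen and collagen IV of the basement membrane, had the largest difference of the 10 genes between leading edge and hub and between leading edge and control. It was at 13.02, 13.09 and 12.85 at the leading edge, at 9.99, 8.67 and 7.73 in the hub and at 7.62, 7.16 and 6.35 in control skin. The leading edge arrays lay close together and far above all others, and the hub arrays were spread widely, with the lowest of them close to the highest control array. The difference was 4.19 ± 0.50 (SE, 18.3-fold, adjusted p = 0.000715, limma) for leading edge minus hub and 5.94 ± 0.50 (61.6-fold, adjusted p = 2.76e-05, limma) for leading edge minus control. Leaving out 1 array moved the difference from hub to between 3.66, without hub replicate 3, and 4.79, without hub replicate 1, and it stayed called. Hub minus control was 1.75 ± 0.50 (adjusted p = 0.0679, limma), not called. It was 2.29 (adjusted p = 0.0223, limma) without hub replicate 3 and 1.16 (adjusted p = 0.127, limma) without hub replicate 1. A second probe set of Mmp9 gave 4.55 for leading edge minus hub and 5.38 for leading edge minus control, both called, and 0.84 for hub minus control, not called (adjusted p = 0.197, limma).

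Mmp10, stromelysin-2, a protease of broad matrix specificity that is known from keratinocytes at wound margins, behaved in a similar way. It was at 11.19, 11.32 and 11.08 at the leading edge, at 9.88, 8.70 and 7.41 in the hub and at 7.17, 7.08 and 6.87 in control skin. No hub array reached a leading edge array, and the 3 hub arrays stood in the same order as for Mmp9. The leading edge minus hub difference was 2.53 ± 0.47 (SE, 5.78-fold, adjusted p = 0.00817, limma), and leading edge minus control was 4.16 ± 0.47 (17.8-fold, adjusted p = 2e-04, limma). Without hub replicate 3 the difference from hub was 1.90 and without hub replicate 1 it was 3.14, both called. Hub minus control was 1.63 ± 0.47 and was not called (adjusted p = 0.0754, limma). It was 2.25 (adjusted p = 0.00465, limma) without hub replicate 3 and 1.02 (adjusted p = 0.112, limma) without hub replicate 1.

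Mmp13, collagenase-3, which cuts fibrillar collagen in rodent skin, was at 11.39, 11.23 and 10.89 at the leading edge, at 8.69, 6.73 and 6.62 in the hub and at 7.34, 7.38 and 8.76 in control skin. The leading edge arrays stood apart, and the hub and control arrays overlapped, with 1 high array in each of those groups. The difference from hub was 3.83 ± 0.54 (SE, 14.2-fold, adjusted p = 0.00195, limma) and leading edge minus control 3.35 ± 0.54 (10.2-fold, adjusted p = 0.00169, limma). Hub minus control was -0.48 ± 0.54 (adjusted p = 0.734, limma), with a 95% confidence interval from -1.71 to 0.74. Without hub replicate 1, leading edge minus hub was 4.50, still called, and hub minus control was -1.15 (adjusted p = 0.147, limma). Without control replicate 3, hub minus control was -0.02.

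Mmp1b, 1 of a pair of mouse genes related to human interstitial collagenase, had a low but very even signal outside the leading edge. It was at 7.52, 7.44 and 6.93 at the leading edge, at 5.01, 5.07 and 5.01 in the hub and at 4.73, 4.57 and 4.73 in control skin. Of the 23 nonspecific probe sets, 11 averaged at or above its control mean, so its level in hub and control skin was near background. The difference was 2.27 ± 0.14 (SE, adjusted p = 2.06e-05, limma) for leading edge minus hub and 2.62 ± 0.14 (adjusted p = 1.75e-06, limma) for leading edge minus control. Hub minus control was 0.35 ± 0.14 and not called (adjusted p = 0.186, limma).

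Mmp3, stromelysin-1, which degrades proteoglycans, laminin and fibronectin and activates other MMP precursors, was the only 1 of the 10 genes called higher at the leading edge and lower in the hub than in control skin. It was at 10.85, 10.70 and 10.64 at the leading edge, at 9.10, 8.71 and 8.51 in the hub and at 9.64, 9.55 and 9.90 in control skin. The 3 groups did not overlap, and control lay between the wound groups. The difference between leading edge and hub was 1.95 ± 0.15 (SE, adjusted p = 6.05e-05, limma), leading edge minus control was 1.03 ± 0.15 (adjusted p = 0.000841, limma) and hub minus control was -0.92 ± 0.15 (adjusted p = 0.00627, limma).

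**Figure D2:**
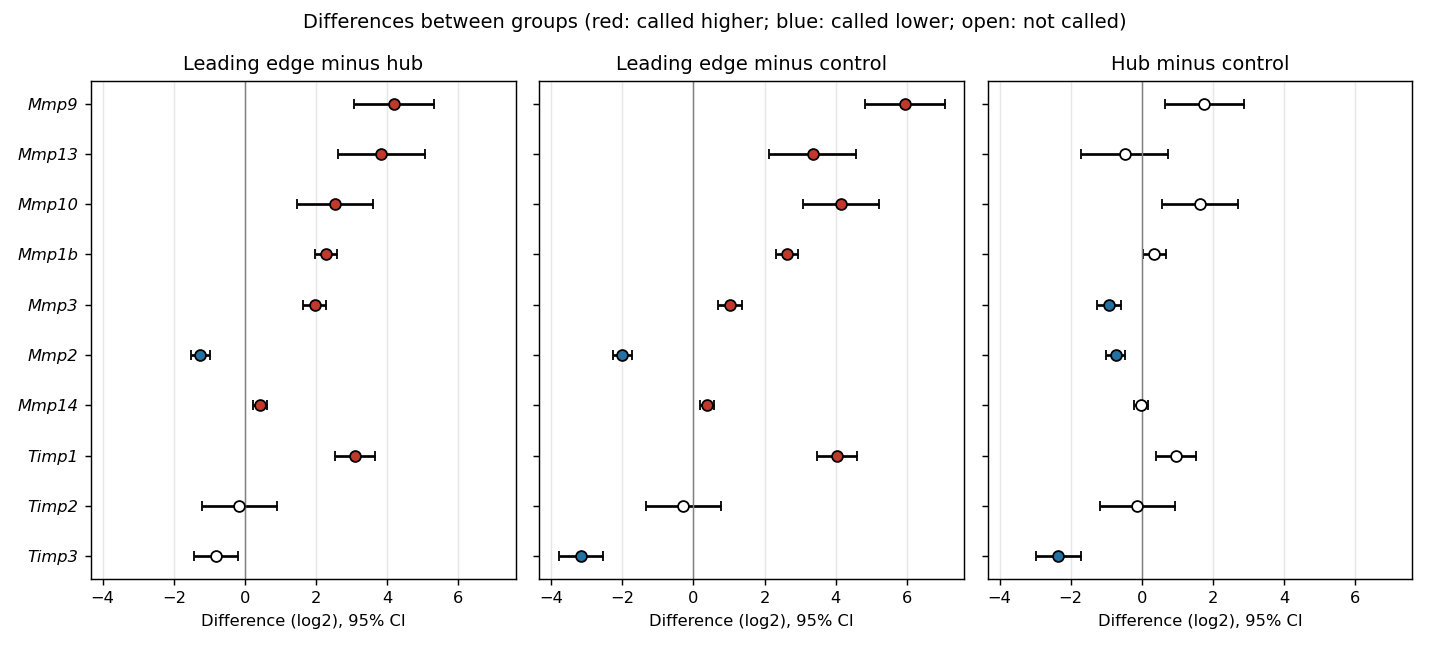
Differences between groups (x axis, log2, with 95% confidence intervals) are shown for the 10 genes (y axis), with a panel for each comparison and filled points where a gene was called. For leading edge minus hub, 7 genes lie above 0 and are called, and Mmp2 is called below it, whereas for hub minus control the 3 called genes Mmp3, Mmp2 and Timp3 all lie below 0.

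Mmp2, gelatinase A, ran the other way. It was at 7.52, 7.69 and 7.23 at the leading edge, at 8.81, 8.82 and 8.57 in the hub and at 9.48, 9.57 and 9.38 in control skin. The groups were separate and stood in order of distance from the wound. Leading edge minus hub was -1.25 ± 0.12 (SE, adjusted p = 0.000262, limma), leading edge minus control was -1.99 ± 0.12 (adjusted p = 4.42e-06, limma) and hub minus control was -0.74 ± 0.12 (adjusted p = 0.00662, limma). The gelatinases Mmp9 and Mmp2 therefore differed in direction at the leading edge in both comparisons.

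Mmp14, a membrane-type MMP that activates the Mmp2 precursor at the cell surface with the help of Timp2, differed little. It was at 10.07, 10.01 and 9.84 at the leading edge, at 9.45, 9.68 and 9.54 in the hub and at 9.55, 9.60 and 9.62 in control skin. The leading edge arrays were above all others by a narrow margin. The difference from hub was 0.42 ± 0.09 (SE, 1.33-fold, adjusted p = 0.0132, limma) and leading edge minus control 0.38 ± 0.09 (1.30-fold, adjusted p = 0.0102, limma). The call against hub was lost without leading edge replicate 2 (difference 0.40, adjusted p = 0.0540, limma) or hub replicate 1 (difference 0.36, adjusted p = 0.0541, limma). A second probe set of Mmp14 gave 0.52 and 0.30, both called.

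Among the inhibitors, Timp1, which is secreted and inhibits most soluble MMPs, was the only one of the 3 TIMPs measured that was called higher at the leading edge. It was at 10.34, 10.24 and 9.50 at the leading edge, at 6.69, 6.68 and 7.46 in the hub and at 5.96, 5.96 and 6.05 in control skin. The groups did not overlap, and hub replicate 3 was the highest hub array for Timp1 while it was the lowest for Mmp9, Mmp10 and Mmp13. Leading edge minus hub was 3.09 ± 0.25 (SE, 8.50-fold, adjusted p = 7.89e-05, limma) and leading edge minus control 4.04 ± 0.25 (16.4-fold, adjusted p = 4.62e-06, limma). Hub minus control was 0.95 ± 0.25 and missed the threshold (adjusted p = 0.0513, limma). It passed it without leading edge replicate 3 (adjusted p = 0.0281, limma), which changes only the estimate of the spread.

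Timp3, which binds to the extracellular matrix and also inhibits proteases of the ADAM family, was lower in both wound groups than in control skin. It was at 7.84, 7.63 and 6.62 at the leading edge, at 8.12, 8.50 and 7.92 in the hub and at 10.62, 10.42 and 10.54 in control skin. Both wound groups lay below every control array, and leading edge lay just below hub. Leading edge minus control was -3.16 ± 0.28 (SE, 8.97-fold lower, adjusted p = 3.6e-05, limma) and hub minus control -2.35 ± 0.28 (5.09-fold lower, adjusted p = 0.00144, limma). Leading edge minus hub was -0.82 ± 0.28 and was not called (adjusted p = 0.101, limma). It was -0.45 (adjusted p = 0.162, limma) without leading edge replicate 3. All 4 probe sets of Timp3 were called lower for leading edge minus control, and their differences ran from -3.16 to -2.73. For leading edge minus hub the 4 differences ran from -0.82 to -0.13 and 1 was called.

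Timp2, which inhibits MMPs and takes part in activation of the Mmp2 precursor, was not called in any comparison. Its main probe set was at 9.64, 9.05 and 8.68 at the leading edge, at 8.97, 9.81 and 9.06 in the hub and at 10.31, 9.65 and 8.27 in control skin. All groups overlapped, and the control arrays spread the most. The differences were -0.16 ± 0.47 for leading edge minus hub (95% confidence interval -1.21 to 0.90), -0.29 ± 0.47 for leading edge minus control (-1.34 to 0.77) and -0.13 ± 0.47 for hub minus control (-1.18 to 0.93). These intervals are wide, and the data do not show that Timp2 was unchanged. In all 5 probe sets of Timp2, control replicate 1 was the highest and control replicate 3 the lowest control array.

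**Figure D3:**
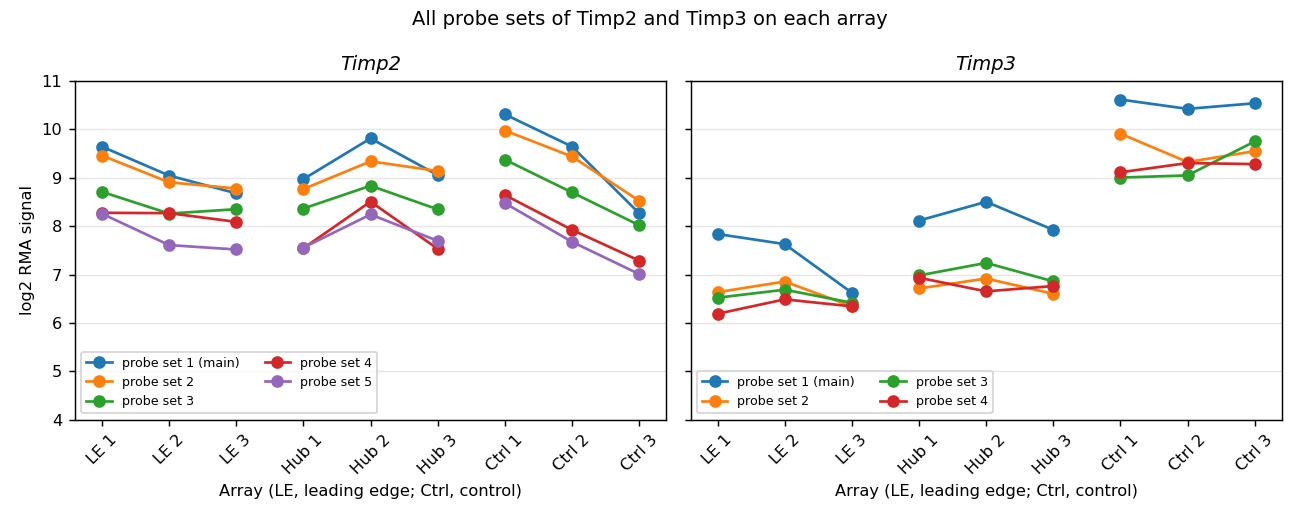
The log2 signal (y axis) of every probe set of Timp2 (left, 5 probe sets) and Timp3 (right, 4 probe sets) is shown on each of the 9 arrays (x axis), with lines that only join arrays of the same group for 1 probe set. Timp3 probe sets lie lower on all leading edge and hub arrays than on control arrays, whereas those of Timp2 overlap between groups and move together from array to array.

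The study's own rule asked for a fold above 2 in each replicate and was read here as each same-numbered pair of arrays. For leading edge minus hub, 7 of the 10 genes passed it in either direction, beside 1.04% of all genes. Against control, 7 leading edge genes passed, beside 3.01%. For hub minus control, 2 passed, Mmp9 upward and Timp3 downward, beside 0.521%. Mmp14 and Timp2 passed in no comparison, Timp3 did not pass for leading edge minus hub, and Mmp3 did not pass for leading edge minus control, where its group means differed by 2.05-fold.

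Within the wider families, 18 of 23 MMP genes and 3 of 4 TIMP genes were measured. Counts in this and the next lists stand beside shares of all genes called higher and lower of 5.39% and 5.23% for leading edge minus hub, 11.9% and 10.8% for leading edge minus control, and 4.16% and 3.12% for hub minus control. For leading edge minus hub, 9 of the 18 MMP genes were called higher and 1 lower, and for leading edge minus control 9 were higher and 2 lower. For hub minus control, none was called higher by limma and 2 were lower. At an unadjusted p under 0.05 (limma), 3 of the 18 were higher and 4 lower, beside 1929 and 1402 of 17097 genes. Besides the genes above, Mmp1a, the other gene of the mouse pair, was called higher at the leading edge than in hub, by 0.94. So were Mmp12, macrophage elastase, by 0.70, and Mmp16, a membrane-type MMP, by 0.26. Mmp1a was at 6.05, 5.36 and 5.27 at the leading edge, at 4.75, 4.54 and 4.56 in the hub and at 4.61, 4.19 and 4.93 in control skin, where it was near background. Mmp12 had means of 5.98 at the leading edge, 5.28 in hub and 5.23 in control cells, and Mmp16 of 5.58, 5.32 and 5.27. Both were near background in hub and control cells. Mmp24, another membrane-type MMP, was lower by 0.31 at the leading edge than in control skin. Mmp8, neutrophil collagenase, was at 5.78, 5.70 and 5.71 at the leading edge, at 5.78, 5.50 and 5.72 in the hub and at 5.78, 5.92 and 5.77 in control skin, and was not called.

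In the order of genes along chromosome 9, the calls were grouped. Mmp13, Mmp12, Mmp1b, Mmp3, Mmp1a and Mmp10 follow each other in the RefSeq gene order, and all 6 were called higher at the leading edge than in hub and than in control skin. Mmp8, Mmp20 and Mmp7 come after them, and none of these 3 was called in any comparison, with leading edge minus hub differences of 0.07, -0.08 and -0.06. Mmp27, which lies between Mmp8 and Mmp20, was not analysed here. Mmp20 had a mean signal of 4.92 at the leading edge, against 5.00 in hub and 4.94 in control cells, and Mmp7 had means of 5.30, 5.35 and 5.20 in that order, so both were near background in every group. Mmp8 was also dim, with means of 5.73, 5.67 and 5.82 in that order. The missing calls of Mmp8, Mmp20 and Mmp7 therefore do not show that these genes were unchanged. Among the 6 called genes, Mmp12, Mmp1b and Mmp1a were near background in hub and control cells. For hub minus control only Mmp3 was called among the 9 measured genes. The genes of this cluster are related in sequence, and cross-hybridisation between them was not tested.

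**Figure D4:**
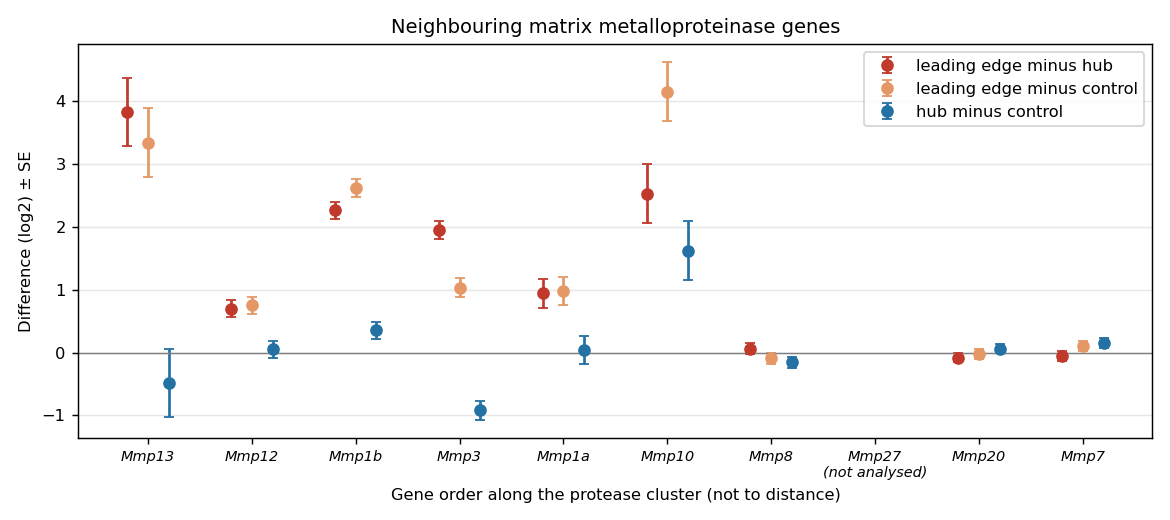
Differences between groups (y axis, log2 ± SE) are shown for the MMP genes of the chromosome 9 cluster in their genomic order (x axis, not to distance). The 6 genes on the left, Mmp13 to Mmp10, lie above 0 for leading edge minus hub and leading edge minus control, and Mmp8, Mmp20 and Mmp7 lie near 0 in all comparisons.

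Genes that act on MMPs were less uniform. Of 16 measured genes of activation and inhibition, 5 were higher and 1 lower for leading edge minus hub (median 0.07), 7 were higher and 1 lower for leading edge minus control (median 0.17), and 1 was higher for hub minus control (median 0.01), which is near the share of all genes. Plau, urokinase, which makes the plasmin that can activate MMP precursors, was at 9.97, 9.91 and 9.50 at the leading edge, at 8.49, 8.68 and 8.51 in the hub and at 8.27, 8.32 and 8.70 in control skin. Its leading edge minus hub difference was 1.23 (adjusted p = 0.000733, limma). Plaur, the urokinase receptor, differed by 1.45 in the same comparison (adjusted p = 0.00038, limma) and by 1.87 for leading edge minus control (adjusted p = 2.43e-05, limma). Cttn, cortactin, a component of invadopodia where MMPs are delivered, was higher than in hub by 0.58, Lrp1, an endocytic receptor that clears MMPs, by 0.35, and Cd44, a docking site for Mmp9, by 0.23. Thbs2, thrombospondin-2, which helps to clear Mmp2, was lower than in hub by 0.70 on the log2 scale. Furin, a convertase that activates membrane-type MMPs, was higher by 0.57 than in control skin and was not called against hub. Lcn2, which binds MMP9, was the 1 gene called for hub minus control, by 0.97.

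Of 14 measured matrix proteins and other proteins that MMPs cut, 5 were higher for leading edge minus hub and none lower by limma. The list median was 0.44. At an unadjusted p under 0.05 (limma), 6 were higher and 0 lower, beside 1860 and 2020 of 17097 genes. The 5 called were Fn1, fibronectin, Lamb3 and Lama3, chains of laminin-332 of the epidermal basement membrane, Tnc, tenascin-C, and Hspg2, perlecan. Lamb3 was at 12.77, 12.86 and 12.81 at the leading edge, at 11.85, 11.83 and 11.88 in the hub and at 11.46, 11.66 and 11.57 in control skin, a difference of 0.96 for leading edge minus hub (adjusted p = 5.1e-05, limma). Lama3 differed by 0.92 (adjusted p = 9.68e-05, limma), Tnc by 0.87 and Hspg2 by 0.69. Fn1 differed by 3.03 (adjusted p = 0.0273, limma) with uneven arrays, at 11.42, 8.16 and 9.17 at the leading edge, at 5.92, 7.61 and 6.12 in the hub and at 6.54, 5.93 and 6.42 in control skin. Against control skin the same 5 were higher and Col7a1, the collagen of anchoring fibrils, was lower by 0.25 (median of the list 0.56), and for hub minus control Lama3 and Lamb3 were higher and Col7a1 was lower (median 0.02).

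The transcription factors that are known to act on MMP promoters moved in both directions. Of 16 measured AP-1, ETS and RUNX genes, 2 were higher and 1 was lower for leading edge minus hub, 4 higher and 7 lower for leading edge minus control, and 2 higher and 7 lower for hub minus control. The list medians were 0.03, -0.14 and -0.13. The AP-1 gene Fosl1 was at 11.01, 10.93 and 10.98 at the leading edge, at 10.18, 10.45 and 9.93 in the hub and at 11.42, 11.51 and 11.50 in control skin. It was thus higher at the leading edge than in hub by 0.79 (adjusted p = 0.00236, limma) but lower than in control skin, with a difference of -0.51 (adjusted p = 0.0112, limma), and control was the highest group. Jun was at 10.93, 10.70 and 10.67 at the leading edge, at 11.22, 11.12 and 10.90 in the hub and at 11.98, 11.95 and 11.90 in control skin, and its leading edge minus control difference was -1.18 (adjusted p = 3.19e-05, limma). Junb, Jund, Fosb and Atf3 were also lower in both wound groups than in control skin. Runx1 was higher at the leading edge than in hub by 0.41 and than in control skin by 0.78. The ETS family genes Ets1, Elf3 and Etv4 exceeded control skin at the leading edge by 1.53, 1.24 and 1.13, and were not called against hub. Ets1 (1.14, adjusted p = 0.0512, limma) and Elf3 (0.56, adjusted p = 0.0511) narrowly missed the threshold there, and Etv4 differed by 0.37 (adjusted p = 0.409).

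Patterns across the 9 arrays were compared as a description, in which the group differences shape every correlation. Outside the set, the genes most like Mmp9 were Sdf2l1 (r = 0.990), Mad1l1 (r = 0.987) and Myl6 (r = 0.986), and Sdf2l1 was also among the nearest to Mmp10 (r = 0.975). Prss22 was nearest to Mmp1b (r = 0.990), Gli2 to Mmp13 (r = 0.974) and Trp53i11 to Timp1 (r = 0.994), with Ereg, an EGF receptor ligand, next (r = 0.991). Pdlim4 was nearest to Mmp2 (r = 0.996) and Map3k12 to Timp3 (r = 0.982). Leading edge replicate 3 was the lowest leading edge array for all 10 genes of the set, whichever way they differed between groups, beside 27.8% of all genes.

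Neutrophils, macrophages and fibroblasts also make several of these proteins, so their markers are given beside the results. The summed level of the 17 measured myeloid markers was 110.5 to 119.2 on leading edge arrays, 107.8 to 109.1 on hub arrays and 101.6 to 105.1 on control arrays. Lyz2, lysozyme of myeloid cells, was at 8.25, 5.36 and 7.12 at the leading edge, at 5.25, 5.38 and 5.19 in the hub and at 5.20, 5.07 and 4.92 in control skin. Tyrobp, a myeloid adaptor protein, was at 7.32, 5.60 and 7.30 at the leading edge and at 5.39 to 5.78 on the hub arrays and 5.60 to 5.71 on the control arrays. Both were at the level of hub and control arrays on leading edge replicate 2. Cd14, a co-receptor for lipopolysaccharide, was at 7.28, 6.64 and 6.91 at the leading edge, at 6.07, 5.93 and 6.21 in the hub and at 6.03, 6.03 and 6.09 in control skin. Cxcr2, a chemokine receptor of neutrophils, was at 6.08, 6.40 and 6.43 at the leading edge, at 5.90, 5.75 and 5.64 in the hub and at 5.46, 5.71 and 5.46 in control skin, so that these markers were raised on all leading edge arrays. Among leading edge arrays, replicate 1 had the highest myeloid sum and the highest values of Mmp13, Mmp1b, Mmp3, Mmp14, Timp1, Timp2 and Timp3. Of these, Timp2 and Timp3 were not called higher at the leading edge in any comparison. Replicate 2 had the lowest myeloid sum of that group and the highest values of Mmp9 (13.09), Mmp10 (11.32) and Mmp2 (7.69). The share of all genes highest on each array was not computed, so these orders are a description only. Ptprc, the pan-leukocyte gene, was at 4.81, 4.20 and 4.32 at the leading edge, at 4.25, 4.15 and 4.17 in the hub and at 4.10, 4.06 and 4.19 in control skin, all near background. Of the 17 markers, Cd14 and Cxcr2 were called higher for leading edge minus hub. Called higher were 5 for leading edge minus control and 1 for hub minus control. At an unadjusted p under 0.05 (limma), 7, 9 and 2 were higher in that order and 0 lower. Over all 17097 genes, 1860, 3061 and 1929 were higher at that threshold. S100a8 and S100a9 among the markers are also known from wounded keratinocytes. For hub minus control these 2 genes differed by 2.51 and 1.48, and the other markers ran from -0.18 (Csf1r) to 0.22 (Cxcr2). The step of the summed level from control to hub therefore came largely from these 2 genes.

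The 13 fibroblast markers summed to 89.0 to 93.2 on leading edge arrays, 91.3 to 92.2 on hub arrays and 92.4 to 94.3 on control arrays, and Pdgfra and Lum lay between 4.52 and 5.07 on all arrays. None was called higher for leading edge minus hub by limma, and Thy1 and Postn were called lower. At an unadjusted p under 0.05 (limma), 2 of the 13 were higher and 3 lower, beside 1860 and 2020 of 17097 genes. For leading edge minus control, Vim and Col6a2 were called higher and Col6a1, Dcn, Thy1 and Postn lower, and for hub minus control Col6a1 and Dcn were lower. Dcn, decorin, was at 6.60, 6.90 and 7.50 at the leading edge, against means of 7.55 in hub and 8.65 in control cells. Postn, periostin, had means of 9.72 at the leading edge, 11.04 in hub and 11.67 in control cells, and the groups stood in the same order for both as for Mmp2. Vim, vimentin, was at 10.57, 8.57 and 8.58 at the leading edge, at 7.06, 9.31 and 9.75 in the hub and at 7.27, 7.19 and 5.40 in control skin, a spread within each group. Hub replicate 1, the hub array highest in Mmp9, Mmp10 and Mmp13, had the lowest fibroblast sum (91.3) and endothelial sum (76.3) of the hub arrays. Among single markers it was the lowest of them in Vim and Thy1 (10.04) and the highest in Postn (11.47), Col6a1 (7.64) and Col1a1 (6.93). Its myeloid sum (109.1) was the highest of them. None of the 12 endothelial markers was called by limma in any comparison, though their sum reached 87.3 on leading edge replicate 1, beside 76.4 on replicate 2. At an unadjusted p under 0.05, 3 were higher for leading edge minus control, 1 for hub minus control and 0 for leading edge minus hub. Over all 17097 genes, 3061, 1929 and 1860 were higher in that order. With the mean of the myeloid markers as a covariate, 5 of the 10 genes were called for leading edge minus hub, and Mmp13 (difference 3.40, adjusted p = 0.107, limma), Mmp10 (2.61, adjusted p = 0.165) and Mmp14 (0.46, adjusted p = 0.177) were not. Against control, 4 leading edge differences were called with it, and Mmp13 (2.64), Mmp10 (4.28), Mmp3 (0.76), Mmp14 (0.45) and Timp3 (-2.82) were not. The calls over all 17097 genes also fell with it, from 1816 to 453 for leading edge minus hub and from 3891 to 579 against control. That covariate includes S100a8 and S100a9 and differs between the groups itself, and the part of other cells in the differences was not tested further.

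**Figure D5:**
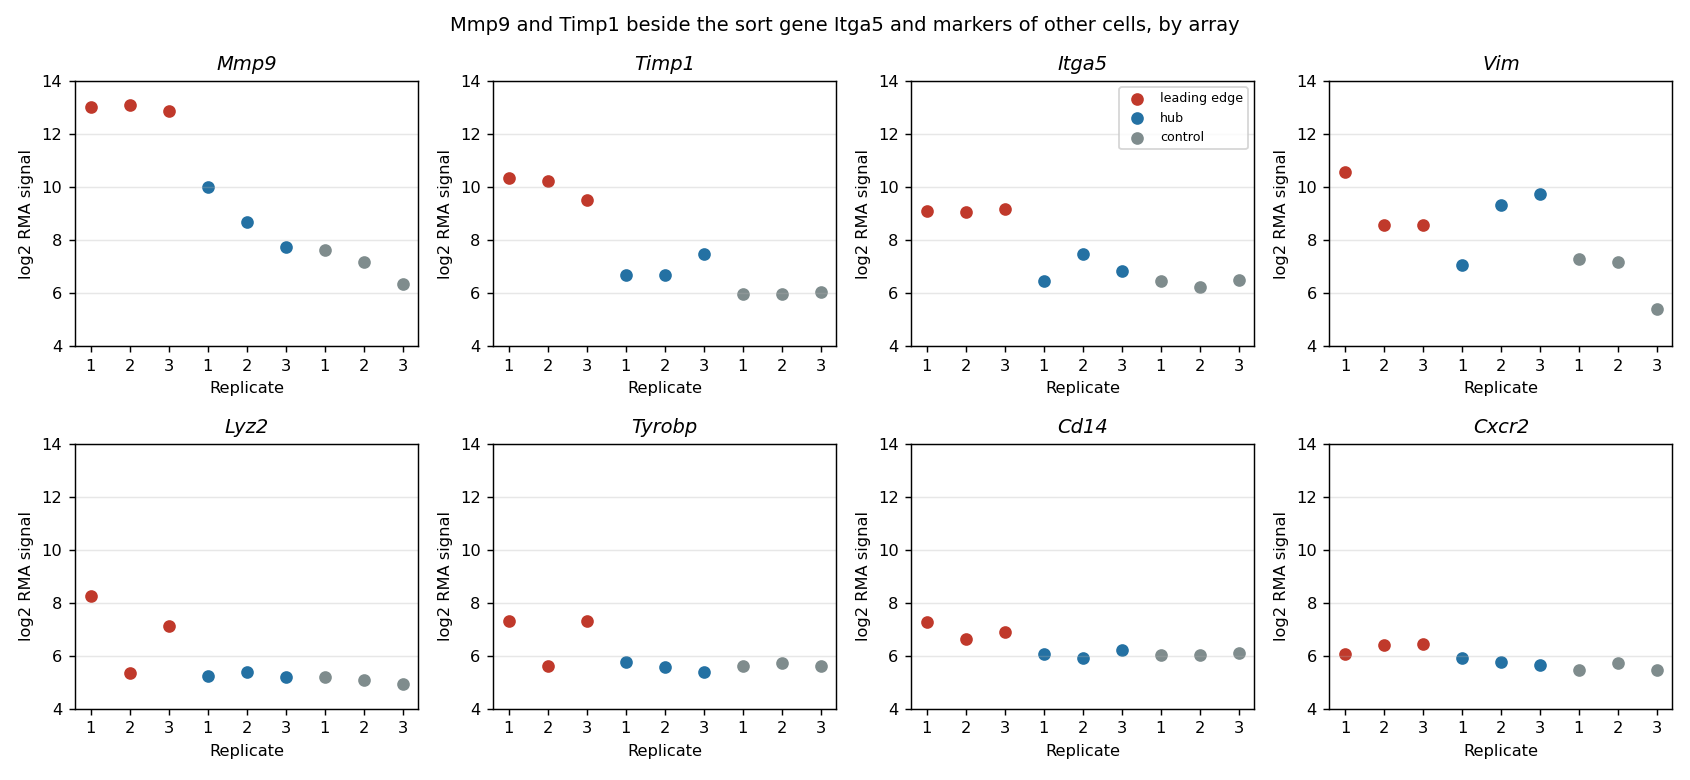
The log2 signal (y axis) of Mmp9, Timp1, the sort gene Itga5, the mesenchymal gene Vim and the myeloid genes Lyz2, Tyrobp, Cd14 and Cxcr2 is shown on each array (x axis, replicates 1 to 3 of leading edge, hub and control). Mmp9 and Timp1 are high on all 3 leading edge arrays, whereas Lyz2 and Tyrobp are high on replicates 1 and 3 of that group and not on replicate 2, and Cd14 and Cxcr2 are above the hub arrays on all 3.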

How the data were processed

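RNA of sorted basal cells was amplified by the authors and hybridised to 9 Affymetrix mouse genome PM strip arrays, and the deposited log2 values had been made with RMA, which corrects background, gives all arrays 1 distribution and summarises the probes of a probe set. The RMA version: not given in the sources used here. RMA hides a change of total RNA and compresses differences of dim genes, and no depth applies to arrays, whose number limits the precision. The arrays held 45141 probe sets (104 controls), and only the 28898 with a single gene symbol were used, which left out 551 with several symbols and 15588 without any. The brightest on average was kept for each of 17097 genes, with no filter. All 9 arrays entered 1 model with group means from the labels (limma 3.58.1, R 4.3.3, lmFit and eBayes), and p-values were two-sided and adjusted by Benjamini-Hochberg over all genes, with calls under 0.05. The code was tested on simulated data. No 2 arrays held identical values (0 pairs). Same-numbered arrays did not deviate together (r from -0.178 to 0.0815, 0 of 9 pairs above 0.1), so no block was used.

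The 10 genes and the gene lists were chosen with earlier results of these data known. The genes named were the 10, called genes of the MMP and TIMP families, up to 6 called genes of each other list, markers that moved and the nearest 3 patterns; further values of list genes were chosen after they were seen. Alternatives were a replicate block, array weights, a variance trend, median centring, repeated quantile normalization, leaving out dim genes, other uses of probe sets, the 6 arrays compared, a 2-fold minimum, marker covariates and leaving out each array. Promoters were those of RefSeq. Mmp9 and Mmp2 promoters, Mmp15, Mmp21, Mmp25, Mmp27, Mmp28 and Timp4 levels were not analysed here.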

Additional observations from a re-analysis of the deposited data

How the results depend on the processing

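Each difference of the 10 genes was recomputed under 21 alternatives, which gave 630 values, of which 592 kept direction and side of the threshold, 15 lost a call, 12 gained one and 11 changed sign. The sign changes concerned only Timp2 and Mmp14 where neither was called. Timp2 turned to 0.0092 for leading edge minus hub with the mean of its probe sets, and with fibroblast markers as a covariate to 0.17 for leading edge minus hub, 0.60 for leading edge minus control and 0.43 for hub minus control. Mmp14 turned to 0.0035 for hub minus control with that covariate. Leaving out 1 array gave Timp2 -0.42 to 0.11, -0.86 to 0.17 and -0.70 to 0.32 in the same order, and Mmp14 -0.093 to 0.019 for hub minus control. Without 1 array, leading edge minus hub ran from 3.66 to 4.79 for Mmp9, 3.47 to 4.50 for Mmp13, 1.90 to 3.14 for Mmp10 and -1.06 to -0.45 for Timp3, and hub minus control from 1.16 to 2.29 for Mmp9 and 1.02 to 2.25 for Mmp10. With the mean of all probe sets Timp3 was called for leading edge minus hub (-0.47, adjusted p = 0.0451, limma), and Timp1 for hub minus control (adjusted p = 0.0468), as it was without dim genes (0.0490).

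The number of the 10 genes called went to 5 for leading edge minus hub and 4 for leading edge minus control with the myeloid covariate, and for hub minus control it was 6 with a variance trend, with Mmp9 (adjusted p = 0.0395, limma), Mmp10 (0.0457) and Timp1 (0.0333) higher, and 1 with a 2-fold minimum. Leaving out 1 array gave 7 to 8, 9 to 9 and 3 to 5 genes, with 5 for hub minus control without leading edge replicate 3 or hub replicate 3. With the replicate block, Mmp9 was called for hub minus control (1.75, adjusted p = 0.0241, limma), and no other call among the 10 genes changed. Over all genes the main test called 1816, 3891 and 1244 genes in that order, the myeloid covariate 453, 579 and 389, and the 2-fold minimum 319, 803 and 186. With all probe sets tested it was 2756 and 6278 for leading edge minus hub and minus control, and for hub minus control 766 with 6 arrays, 774 without hub replicate 2 and 699 without hub replicate 3. Median centring called 546 genes higher and 616 lower for hub minus control, in place of 711 and 533. The low signal of Mmp1b, Mmp1a, Mmp12 and Mmp16 outside the leading edge, near the background probe sets, limits how far their folds can be read. In part this also holds for Timp1, Mmp9 and Mmp10 against control. Of the 23 nonspecific probe sets, 7 averaged at or above the control mean of Timp1 (5.99). For the control means of Mmp9 (7.04) and Mmp10 (7.04) it was 4 each.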
